A study of Mus musculus with 3143 samples.

Results

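Cytosolic ribosomal protein genes were followed across the cells of the mouse kidney glomerulus, the filter of the kidney. A gene was taken when its symbol was Rpl or Rps followed by a number, with at most 1 letter a, x or l after it, or was Rplp0, Rplp1, Rplp2 or Rpsa. Symbols holding "-ps", the Rps6k kinases and names with longer endings were left out. This gave 81 of the 46517 gene names in the count table, 49 of the large ribosomal subunit and 32 of the small one.

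The study compared single glomerular cells of adult C57BL/6 mice labelled IgAN, for IgA nephropathy, with cells of mice labelled Control. Kidney tissue was dissociated with collagenase, pronase and DNase, cells that held a green CellTracker dye were sorted into 384-well plates, and polyadenylated RNA was read along its full length by Smart-seq2. The IgAN group holds 1798 cells (plates 313, 315, 316, 318, 322 and 325) and the Control group 1345 cells (plates 314, 317, 321 and 326). The sources used here do not give how the disease was brought about, the age in weeks or the number of mice. No animal is named in the labels, so each group is 1 sample and no test was made between groups. The spread between plates is given in its place, and since each plate held 1 group only, plate and group cannot be told apart. Cells held 50365 to 1135415 reads in genes, with a median of 234207.

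A ribosome is built from ribosomal RNA and a set of small, mostly basic proteins, which a cell makes in near equal numbers. The mRNAs of these proteins begin with a pyrimidine tract, the TOP motif, through which the mTORC1 kinase and the RNA-binding protein Larp1 set how well they are translated. Their mRNAs are among the most abundant in a cell, and growing lymphocytes are known for making many ribosomes.

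The promoters of the members are shown first, and whether they bear on the levels across cell types was not tested. RefSeq windows on GRCm38.p6, from 250 bases before to 50 bases after the annotated start, were matched by symbol for 60 of the 81 members and for 27025 symbols in all. Some symbols had several windows (72 windows for the 60 members, 32851 in all), and a symbol was counted when any of its windows matched. The letters CTTTCC, the core of a pyrimidine tract (GGAAAG on the other strand), stood in 32 of the 60 members, or 53.3%, against 29.3% of all symbols. Within 20 bases before to 40 bases after the start and on the gene's own strand, they stood in 16 members, or 26.7%, against 3.24% of all symbols. The following 30-base windows hold that core in capitals, 5′ to 3′ on the gene's strand. Rpl13a is the member whose plates stood apart in T or NK-like cells, Rps27 is the close relative of Rps27l, and Rpl4 is the most abundant large subunit member. Their places are chr7:45128719-45128748 (minus strand), chr3:90213630-90213659 (minus strand) and chr9:64173358-64173387 (plus strand).
Rpl13a: caagacctcctcCTTTCCcaggcggctgcc
Rps27: ccgctttcgctcCTTTCCggcggtgacgac
Rpl4: caagtgacaagtCTTTCCttttcctgtggg

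The letters CCGGAAGT (ACTTCCGG on the other strand), the core that ETS factors read, stood in 12 of the 60 members, or 20%, against 4.31% of all symbols. Rps27l, Rps6 and Rpl11 are shown because each is described further on. Their windows lie at chr9:66946084-66946113 (plus strand), chr4:86857440-86857469 (minus strand) and chr4:136053369-136053398 (minus strand), and the capitals mark the core.
Rps27l: ccgcctctatcCCGGAAGTtgctgaggggc
Rps6: ttaatctacgcCCGGAAGTaacgcccctct
Rpl11: aggccacggggCCGGAAGTctccctctctc
The letters AAGATGGC (GCCATCTT on the other strand), the core of a YY1 site, stood in 5 members, or 8.33%, against 3.19% of all symbols. These are matches of letters, not shown sites of binding.

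The members took 19306201 of 816735155 reads, or 2.36%, of which 56.6% fell in large subunit genes and 43.4% in small subunit genes. A single cell gave them between 0.273% and 12.7% of its reads, with a median of 2.14%, and held reads of a median of 76 members. Most members were found almost everywhere: 72 were found in at least 90% of cells. Among the highest levels over all cells, in CPM, reads per 1e+06 reads of the cells, were those of Rps3 (1035 CPM), Rpl4 (925 CPM), Rps9 (839 CPM), Rplp0 (679 CPM) and Rpl8 (674 CPM). Rps3 lies at the mRNA entry channel of the small subunit, Rps9 is a small subunit protein, Rpl4 and Rpl8 are core proteins of the large subunit, and Rplp0 carries the stalk that elongation factors touch. Reads from full-length libraries grow with transcript length, so levels between genes were also set per kilobase of mRNA. Per kilobase, Rps9 led at 918 CPM, against a median of 316 CPM and a lowest value of 37.8 CPM over the 77 members found in at least 50% of cells. The lowest was Rps15a, for which a transcript of 5179 bases was taken, where the median over members was 886 bases. Where main annotated transcripts of a gene were tied, the longest was taken, so the low values depend on that choice. In no cell did any gene exceed 3974 reads, and the highest member stood at 1.00 read per base of mRNA. The sources used here do not say how duplicate reads were treated.

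The table's names miss some cytosolic ribosomal proteins. Of a list of proteins outside the rule, 10 names were in the table, among them Rps3a1 (358 CPM) and Fau, made as a fusion to a ubiquitin-like protein (339 CPM), and the 10 held as many reads as 7.80% of the members' total. A further 261 rows named as pseudogenes held 89125 reads, 0.462% of the member reads. The share differed by gene, and the 2 pseudogene rows of Rpl3 held 27423 reads, 10.1% of that gene's own. The sources used here do not say how reads that map to several copies were counted. Of the 81 members, 46 overlap another annotated gene in GENCODE vM21, most often a small nucleolar RNA in an intron, and 19 overlap a protein-coding gene. Strand was not stated for the counting, so antisense reads cannot be told apart.

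Cells were sorted into 20 clusters without any Rpl or Rps gene, and the clusters were named from markers as 11 classes. The classes were endothelial-like (1679 cells), macrophage or dendritic-like (276), proximal tubule-like (238), T or NK-like (221), podocyte-like (186), mesangial-like (149), B or plasma-like (144), loop of Henle-like (120), parietal epithelial-like (68), smooth muscle or renin-like (41) and neutrophil-like (21). The loop of Henle-like cluster was also led by the distal tubule genes Slc12a3 and Calb1, and an endothelial-like cluster of 308 cells was led by platelet genes such as Ppbp. Markers of a second class at a set level were carried by 8.93% of endothelial-like cells, by 39.2% of podocyte-like cells and by 63.8% to 92.7% of cells of the other classes. Each class level is that of cells that may carry RNA of other cells, and the part of such RNA in the levels was not tested.

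The share of reads in ribosomal protein genes was highest in lymphoid classes and lowest in mesangial-like, podocyte-like and neutrophil-like cells. B or plasma-like cells gave 4.96% ± 0.725 (SD over 7 plates with at least 5 cells), with the lowest plate at 4.19% and the highest at 6.41%. T or NK-like cells gave 4.60% ± 0.807 (10 plates, 3.27% to 5.72%). The ranges of these classes overlap, and B or plasma-like cells were higher in 4 of the 7 plates that held both, so their order is within the spread between plates. Macrophage or dendritic-like cells followed at 2.88% ± 0.395 (10 plates), lower than T or NK-like cells in 10 of 10 plates by a median ratio of 1.58. Parietal epithelial-like cells, of the wall of Bowman's capsule, gave 2.35% ± 0.359 (6 plates). Endothelial-like cells, which line the capillaries, gave 2.19% ± 0.308 (10 plates, 1.72% to 2.68%).

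Below the endothelial-like cells stood the loop of Henle-like cells at 1.96% ± 0.391 (7 plates), proximal tubule-like cells at 1.82% ± 0.363 (8 plates) and smooth muscle or renin-like cells at 1.63% ± 0.0587 (3 plates). Podocyte-like cells, the epithelial cells of the filter, gave 1.47% ± 0.159 (7 plates), and mesangial-like cells, which hold the capillary loops together, gave 1.44% ± 0.192 (9 plates). The neutrophil-like class had 1 plate with at least 5 cells, Control plate 321 with 6 cells, at 0.784%. Over all its cells the share was 1.30% in IgAN (9 cells) and 0.767% in Control (12 cells). IgAN plates 315 (1 cell) and 325 (3 cells) gave 2.60% and 2.20%. Endothelial-like cells were higher than mesangial-like cells in 9 of 9 plates (median ratio 1.54), than podocyte-like cells in 7 of 7 (1.45) and than proximal tubule-like cells in 8 of 8 (1.23). Several neighbours in this order were not apart: parietal epithelial-like cells were above endothelial-like cells in 4 of 6 plates, loop of Henle-like above proximal tubule-like cells in 3 of 6, and podocyte-like above mesangial-like cells in 3 of 6.

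**Figure D1:**
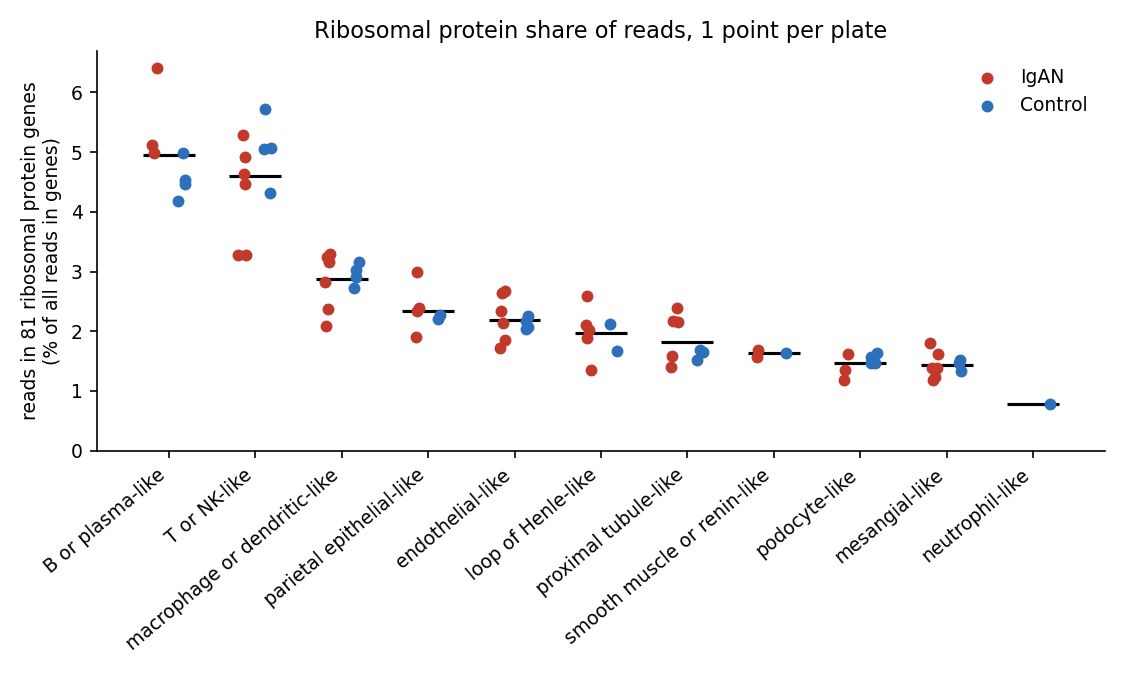
Share of all reads in genes that fell in the 81 ribosomal protein genes (y axis, percent), for each cell class (x axis). Each point is 1 plate with at least 5 cells of the class, red for IgAN and blue for Control, and the bar is the mean over plates, from 4.96% in B or plasma-like to 1.44% in mesangial-like cells, with the single neutrophil-like plate at 0.784%.

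Clusters within a class differed as well. The cluster led by Cd3e, a T cell receptor component (115 cells), was above the cluster led by Gzma, a granzyme of killer cells (106 cells), in 6 of 6 plates, with medians over plates of 5.54% and 3.80%. The C1qc-led cluster, whose leading genes also include Cd209a, Clec10a and Fn1 (104 cells), was above the Treml4-led cluster, whose leading genes mark patrolling monocytes (172 cells), in 10 of 10 plates, with medians of 3.34% and 2.66%. Among endothelial-like cells the Tspan8-led cluster (114 cells) was above the Fgf1-led cluster in 9 of 9 plates, with medians of 2.59% and 2.00%. Its naming was weak: endothelial markers had a mean log2 fold of 0.095 there, against 0.456 to 1.03 in the other endothelial-like clusters. At resolution 2 a Tspan8-led cluster of 105 cells was left without a class. The Apold1-led cluster, whose leading genes include the activation genes Sele, Egr1 and Atf3, lay below the Fgf1-led cluster in 6 of 6 plates, with medians of 1.93% and 2.04%.

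Plates also differed in all classes together. Among classes with at least 10 cells on a plate, plate 316 lay below the class median plate in 7 of 7 classes and was the lowest in 5, with a median log2 difference of -0.31. Plate 322 lay below it in 3 of 3 classes (-0.51), and plates 315 (5 of 5 classes, 0.30) and 325 (5 of 6 classes, 0.19) lay above. All 4 are IgAN plates, but Control plate 326 also lay above in 5 of 6 classes, by less (0.09), and was the highest in 2. In endothelial-like cells each of the 78 measured members was below its median plate in plate 316, where 47 of the 78 had their lowest plate, and 25 had it in plate 322. The highest plate was 325 for 37 members and 315 for 32. Mitochondrial ribosomal proteins, which are encoded by other nuclear genes, were also lowest in plate 316 in these cells (a summed 3331 CPM). Unlike the members, they were highest in plate 322 (6592 CPM), and plates 315 and 325 came next (5148 and 4984 CPM). The median depth per cell was highest on plate 322, with 396718 reads, and lowest on plate 325, with 177508. Plate 316, low in its shares, was the next shallowest (186392 reads), and plate 315, high in its shares, the next deepest (306424 reads). Within a plate, the deeper-sequenced part of the endothelial-like cells, above the plate's median depth, had the lower share in 9 of 10 plates, with a median ratio of 0.918. The deeper part was lower in 4 of 8 plates of macrophage or dendritic-like cells (median ratio 0.992), in 1 of 3 plates of mesangial-like cells and in 3 of 4 plates of T or NK-like cells. The part of depth in the differences between plates was not tested.

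**Figure D2:**
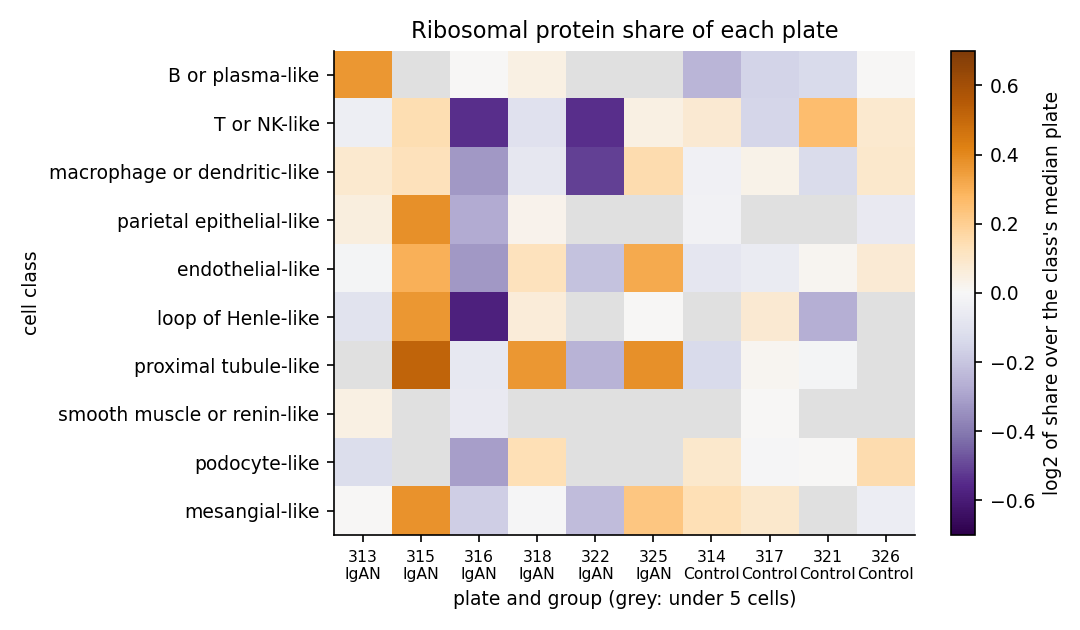
Ribosomal protein share of each plate relative to the median plate of its class (colour, log2), with classes in rows and plates in columns, IgAN first. Among classes with at least 10 cells on the plate, plate 316 is low in 7 of 7 and plate 322 in 3 of 3, and plates 315 and 325 are high in 5 of 5 and 5 of 6. Control plate 326 is also above the median in 5 of 6, by less.

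Nearly all members followed the same order of classes. Of the 77 members at 50 CPM or more in a class, 60 were highest in B or plasma-like and 16 in T or NK-like cells, and the exception was Rps27l. Of all 10126 genes at that level, 18.5% were highest in these classes. Leaving out the neutrophil-like class with its single plate, a member spanned a median of 1.88 on the log2 CPM scale between its highest and lowest class, from 1.24 for Rpl10 to 2.57 for Rps15a. Of the 77, 34 were lowest in podocyte-like and 27 in mesangial-like cells. Rps15a, a small subunit protein, stood at 483 CPM in B or plasma-like and 80.7 CPM in podocyte-like cells. Rps20, also of the small subunit, went from 771 CPM in B or plasma-like to 129 CPM in smooth muscle or renin-like cells. Rpl10, which joins the large subunit late in its assembly, had the narrowest span, from 679 CPM in B or plasma-like to 287 CPM in mesangial-like cells.

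Over 62 sums of a class within a plate (9 classes, at least 10 cells each), the log2 level of a member and that of the other members together had a median Pearson r of 0.923, and 52 of the 77 members reached 0.9. These points share plates, libraries and the same total, so the value is a description. The lowest were Rps27l (-0.13), Rps2 (0.75) and Rpl7a (0.80), and the highest Rps15a and Rps20 (both 0.97).

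**Figure D3:**
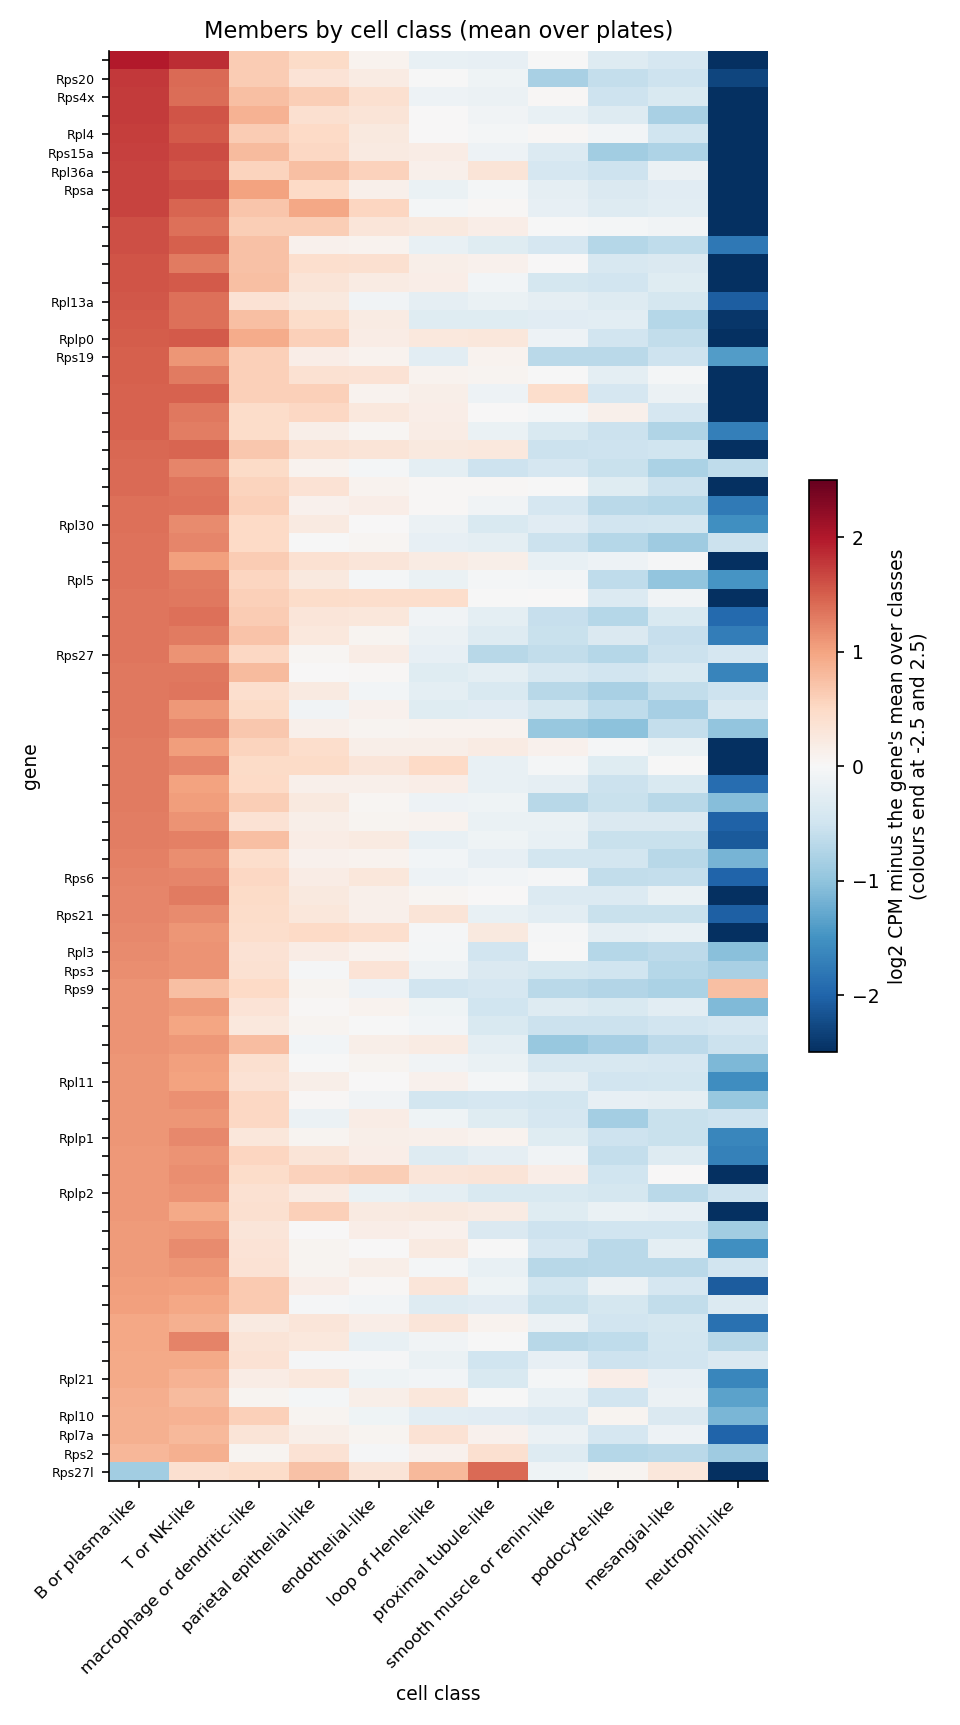
Level of each of the 77 members at 50 CPM or more in a class (rows) in each class (columns), as log2 of the mean CPM over plates minus the gene's mean over classes, with some of the genes described in the text labelled. Red rows on the left show 76 members highest in B or plasma-like or T or NK-like cells, the bottom row shows Rps27l highest in proximal tubule-like cells, and the last column shows Rps9 high in the neutrophil-like class.

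Members with known roles outside or at the edge of the ribosome followed the common order. Rpl5 and Rpl11, which carry the 5S RNA and can hold the p53 ligase Mdm2, went from 469 CPM and 475 CPM in B or plasma-like cells to 91.4 CPM and 161 CPM in mesangial-like cells. The stalk proteins Rplp0, Rplp1 and Rplp2 were highest in T or NK-like cells at 1486 CPM, 731 CPM and 581 CPM, and stood at 334 CPM, 217 CPM and 167 CPM in mesangial-like cells. Rpsa, the small subunit protein also known as the laminin receptor precursor, went from 850 CPM in B or plasma-like to 204 CPM in podocyte-like cells. Rps6, the target of S6 kinase, went from 472 CPM to 129 CPM, and Rps19, a gene of Diamond-Blackfan anaemia, from 822 CPM to 181 CPM, between the same classes. Each of these genes was thus at its highest in a lymphoid class.

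Rps27l, a copy of Rps27 known as a p53 target, had another order. It lies at chr9:66946086-66949516 in GRCm38, overlaps no other annotated gene, and was found in 82.3% of cells at 145 CPM over all cells. Its level was 276 CPM ± 58.9 (SD over 8 plates) in proximal tubule-like, 182 CPM in loop of Henle-like, 170 CPM in parietal epithelial-like, 129 CPM ± 49.0 in endothelial-like (10 plates) and 55.8 CPM ± 30.8 in B or plasma-like cells (7 plates). The other immune classes were not as low as B or plasma-like cells. With reads pooled over a class, Rps27l had 128 CPM in T or NK-like and 156 CPM in macrophage or dendritic-like cells. Pooled in the same way, endothelial-like cells had 135 CPM and B or plasma-like cells 75.9 CPM. Rps27 itself, at chr3:90212522-90213651, ran the other way over B or plasma-like (505 CPM), endothelial-like (228 CPM) and proximal tubule-like cells (124 CPM). Rps27l took 1.56% of the member reads in proximal tubule-like and 0.118% in B or plasma-like cells, a 13.2-fold span, where the median member spanned 1.44-fold between classes. Next after it stood Rps2 with 2.13-fold and Rpl21 with 2.00-fold.

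The copies Rpl3l, Rps4l, Rpl39l and Rpl10l were the members found in the fewest cells. Rpl3l (chr17:24727820-24736143), known as the muscle form of Rpl3, had 676 reads in 52 cells. Of these reads 581 fell in macrophage or dendritic-like cells, where 34 of 276 cells held it (12.3%, exact 95% interval 8.68 to 16.8). It was found in 31 of 172 cells of the Treml4-led cluster (18.0%, 12.6 to 24.6) and in 3 of 104 cells of the C1qc-led cluster (2.88%, 0.599 to 8.20), where 195 of the 203 reads came from 1 cell. T or NK-like cells held it in 0 of 221 cells, which allows up to 1.66%, and endothelial-like cells in 14 of 1679 (0.834%). Its cells lay on all 10 plates, 39 in IgAN and 13 in Control. The Treml4-led cluster itself had 124 IgAN and 48 Control cells. Rpl3 itself was found in nearly every cell, with 388 CPM in macrophage or dendritic-like and 688 CPM in B or plasma-like cells. These intervals cover counting error only, and without molecular identifiers several reads can come from 1 molecule.

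Rps4l (chr6:148354656-148355598), a copy of the X-linked Rps4x, lies within Tmtc1 (chr6:148232430-148444389), on the opposite strand, and GENCODE vM21 lists it as a transcribed processed pseudogene. It was found in 581 cells (18.5%), with 33.4 CPM in endothelial-like, 44.8 CPM in podocyte-like and 42.8 CPM in parietal epithelial-like cells, against 0.404 CPM in mesangial-like and 0.430 CPM in smooth muscle or renin-like cells. It came in few cells at a high level: 165 of 1679 endothelial-like cells, 9.83%, had 50 CPM or more and held 97.6% of its reads in that class. Tmtc1 was found in 27.6% of the endothelial-like cells with Rps4l and in 21.8% of those without, and in podocyte-like cells in 78.3% and 65.7%. The level of Tmtc1 was 331 CPM in podocyte-like and 23.5 CPM in endothelial-like cells, so these classes differed more in Tmtc1 than in Rps4l. Rps4x had 554 CPM in endothelial-like and 1420 CPM in B or plasma-like cells. Rpl39l had 55 reads in 10 cells, 34 of them in 1 T or NK-like cell, and Rpl10l had 19 reads in 5 cells, while Rpl39 and Rpl10 stood at 93.5 CPM and 381 CPM over all cells.

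In the neutrophil-like class Rps9 stood apart from the other members. The 21 cells gave 27868 member reads, of which Rps9 took 4521, or 16.2%, against 3.53% in the other classes. It was found in 21 of 21 cells, and its part was 15.7% in the 9 IgAN cells and 16.9% in the 12 Control cells. Rps27 and Rplp2 also took a larger part of the member reads here (2.52% and 2.42%) than elsewhere (1.01% and 1.16%), and Rpl4 a smaller one (2.41% against 3.91%). On the 1 plate with at least 5 such cells (Control, 6 cells), Rpl22, Rpl36a, Rpl12 and Rpl10a had 3.51 CPM, 2.34 CPM, 7.02 CPM and 9.35 CPM. B or plasma-like cells had 334 CPM, 242 CPM, 475 CPM and 514 CPM of these genes. These cells were the shallowest class, with a median of 121970 reads, and 85.7% of them carried markers of another class.

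Among genes outside the family, the 5 whose levels ran most like the summed members over the 62 class-by-plate sums were Gm26619 (r = 0.96), Gm10260 (0.96), Gm6472 (0.96), Gm27597 (0.96) and Eef1b2 (0.95). Gm26619 and Gm10260 overlap each other on chromosome 13, Gm6472 is a processed pseudogene on chromosome X that overlaps Rpl7a-ps12, and Gm27597 is a microRNA annotation inside Rpl19, so reads of these rows may not be separate from ribosomal protein genes. Eef1b2 encodes part of the elongation factor 1 complex. Next came Gnb2l1, the older symbol of the ribosomal protein Rack1 (0.94), and after a microRNA row inside Rpl13a came Eef1a1 (0.93), Rps3a1 (0.93) and Fau (0.92).

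Other parts of the translation machinery were read from gene lists. Summed elongation and release factors stood at 8190 CPM in B or plasma-like and 7900 CPM in T or NK-like cells. They were lower in endothelial-like (4407 CPM) and mesangial-like cells (2886 CPM). Proximal tubule-like cells, with 4518 CPM in IgAN and 4474 CPM in Control, were near endothelial-like cells (4143 and 4613 CPM). The members' share was higher in endothelial-like than in proximal tubule-like cells in 8 of 8 plates. Ribosome biogenesis genes went from 5527 CPM in B or plasma-like and 5239 CPM in T or NK-like to 2785 CPM in mesangial-like and 2475 CPM in loop of Henle-like cells. Initiation factors varied less, from 8613 CPM in T or NK-like to 5472 CPM in proximal tubule-like cells. The 77 mitochondrial ribosomal protein genes had another order, with 8506 CPM in proximal tubule-like and 8479 CPM in loop of Henle-like cells against 4486 CPM in B or plasma-like and 4170 CPM in macrophage or dendritic-like cells.

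IgAN and Control were compared within the 5 classes that had at least 3 plates of each group with 10 cells. A member was called when every such plate of one group lay above every plate of the other, and it met the size rule when its log2 difference (1 CPM added) was also at least 1. Plates of the groups overlapped in the summed share in all 5 classes. The share was 2.14% in IgAN and 2.13% in Control endothelial-like cells (log2 0.01), 2.91% and 3.00% in macrophage or dendritic-like cells (-0.04) and 1.41% and 1.47% in mesangial-like cells (-0.05). It was 4.10% and 5.12% in T or NK-like cells (-0.32), and 2.13% and 1.63% in proximal tubule-like cells (0.38). Podocyte-like cells had only 2 IgAN plates with 10 cells, at 1.36% and 1.18%, below the 4 Control plates (1.46% to 1.63%), but another IgAN plate with 6 cells had 1.62%.

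**Figure D4:**
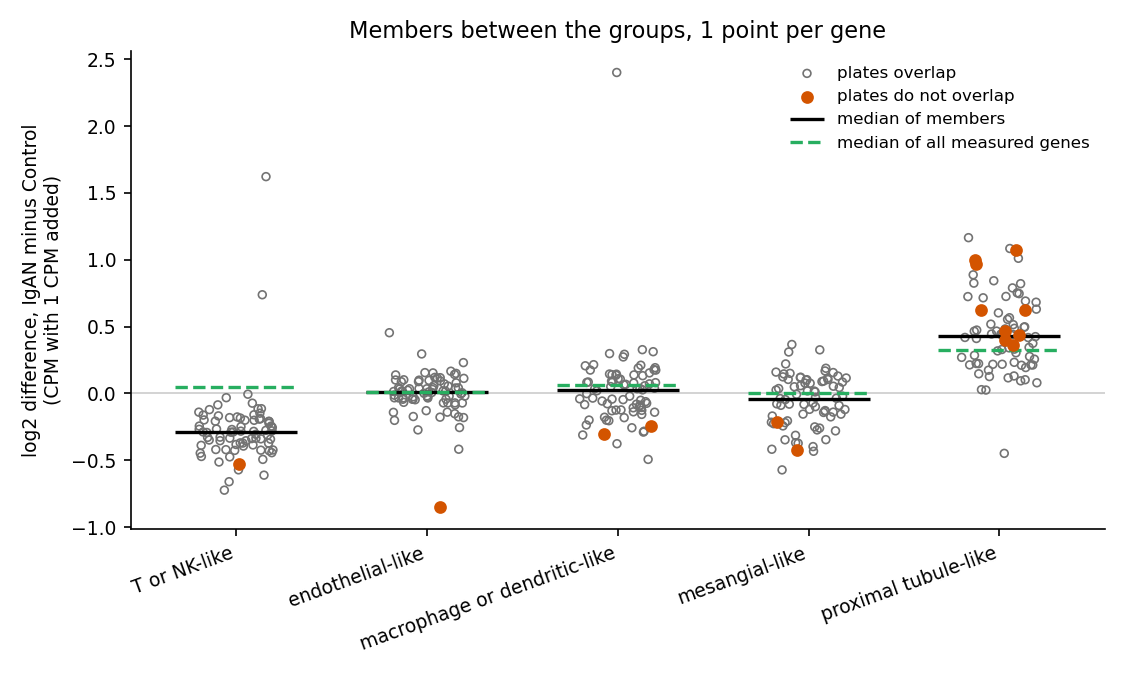
Log2 difference of each measured member, IgAN minus Control (y axis, 1 CPM added), in the 5 compared classes (x axis). Filled points are members whose plates did not overlap (1, 1, 2, 2 and 9 from left to right), black bars are the medians of the members and dashed green bars those of all measured genes, -0.29 and 0.05 in T or NK-like and 0.43 and 0.32 in proximal tubule-like cells.

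In T or NK-like cells 76 of the 78 measured members were lower in IgAN, with a median log2 of -0.29 against 0.05 for all 9440 measured genes, yet plates stood apart for 1 member. By that rule 0 of 78 were higher (0.572% of all genes) and 1 was lower (1.53% of all genes). None met the size rule (0.466% of all genes higher, 1.25% lower). The IgAN plates in number order gave shares of 4.64%, 5.28%, 3.27%, 4.46%, 3.28% and 4.92%, and the Control plates 5.05%, 4.31%, 5.72% and 5.07%. Plates 316 and 322 were the low ones, and the other IgAN plates lay within the Control range. The member with plates apart was Rpl13a, a large subunit protein that also takes part in interferon-driven silencing of translation. Its level was 1433, 1272, 1080, 1407, 1107 and 1469 CPM in the IgAN plates and 1780, 1511, 2064 and 1805 CPM in the Control plates (log2 -0.53). Every IgAN plate lay below every Control plate, and the nearest were 1469 and 1511 CPM. This did not hold with the cells clustered at resolution 0.5 or 2, with ribosomal genes allowed among the variable genes or in the Gzma-led cluster alone, where 0 members had plates apart. Rpl13a overlaps 6 other annotated genes, among them Mir5121 and 4 small nucleolar RNAs.

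The mix of clusters also differed between the groups, and its part in the difference of the share was not tested. The Cd3e-led cluster, with its higher share, gave 83 of 128 Control and 32 of 93 IgAN cells, and the Gzma-led cluster 45 and 61. Within the Cd3e-led cluster the share was 4.53% in IgAN and 5.86% in Control, but only 2 IgAN plates held 5 cells of it. Within the Gzma-led cluster it was 3.80% and 3.75%. All 10 endothelial markers had reads in both groups, at a summed 1271 CPM in IgAN (422 to 5594 CPM over plates) and 516 CPM in Control (389 to 772 CPM), and their part in the result was not tested. Leaving out plates 316 and 322, chosen after seeing the data, the log2 difference of the share was -0.10. Rpsa, with plates that just overlapped (394 to 904 CPM against 901 to 1259 CPM), had 628 CPM in IgAN and 1038 CPM in Control.

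In proximal tubule-like cells 77 of 78 measured members were higher in IgAN, with a median log2 of 0.43 beside 0.32 for all 10347 measured genes. Plates stood apart for 9 members, all higher (7.83% of all genes), and for none lower (3.68%), so the members' 9 of 78 is near the background. The share was 2.39%, 1.59%, 2.15% and 2.17% in IgAN plates 315, 316, 318 and 325, and 1.52%, 1.69% and 1.65% in Control plates 314, 317 and 321. Plate 316 lay within the Control range and the other 3 above it. IgAN plate 322, left out because it had 6 such cells, was at 1.398%, below the 3 Control plates, and plate 313 had 3 cells. Rpl30 alone met the size rule (6.97% of all genes higher, 2.26% lower). This large subunit protein (chr15:34440505-34443640) had 285, 173, 208 and 250 CPM in the IgAN plates and 69.9, 95.6 and 148 CPM in the Control plates, 244 against 116 CPM over the groups (log2 1.07). The lowest IgAN plate was above the highest Control plate. Rps21 and Rpl36a came next, with 204 against 102 CPM (1.00) and 126 against 63.8 CPM (0.97), and Rps24, Rpl31, Rplp1, Rpl24 and Rps25 had log2 0.62, 0.62, 0.44, 0.40 and 0.36. For Rps21 the nearest plates were 109.2 and 109.0 CPM.

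Endothelial RNA in these cells also differed between the groups, and its part in the difference of the share was not tested. The 10 endothelial markers summed to 5091 CPM in IgAN and 202 CPM in Control proximal tubule-like cells, all 10 with reads, and the cells' own markers to 7882 and 15692 CPM. By plate the endothelial markers were 5092, 227, 917 and 9474 CPM in IgAN plates 315, 316, 318 and 325 and 144 to 299 CPM in Control plates. Plate 316 had both its endothelial markers and its ribosomal protein share within the Control ranges. Its share was low beyond these cells too, below the class median plate in 7 of 7 classes. Plate 318, with 917 CPM of these markers, had a share of 2.15%, close to the 2.17% of plate 325 with 9474 CPM. IgAN cells held a median of 5337 genes and Control cells 3846. With the cells that carried at least 5 of the 10 endothelial markers left out, an alternative chosen after seeing the data, the share was 1.92% and 1.61% (log2 0.26), on 2 IgAN and 3 Control plates of at least 5 cells. With a median of ratios scaling in place of total reads, the log2 difference of the share was 0.10, and 2 members had plates apart, 1 of them higher.

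**Figure D5:**
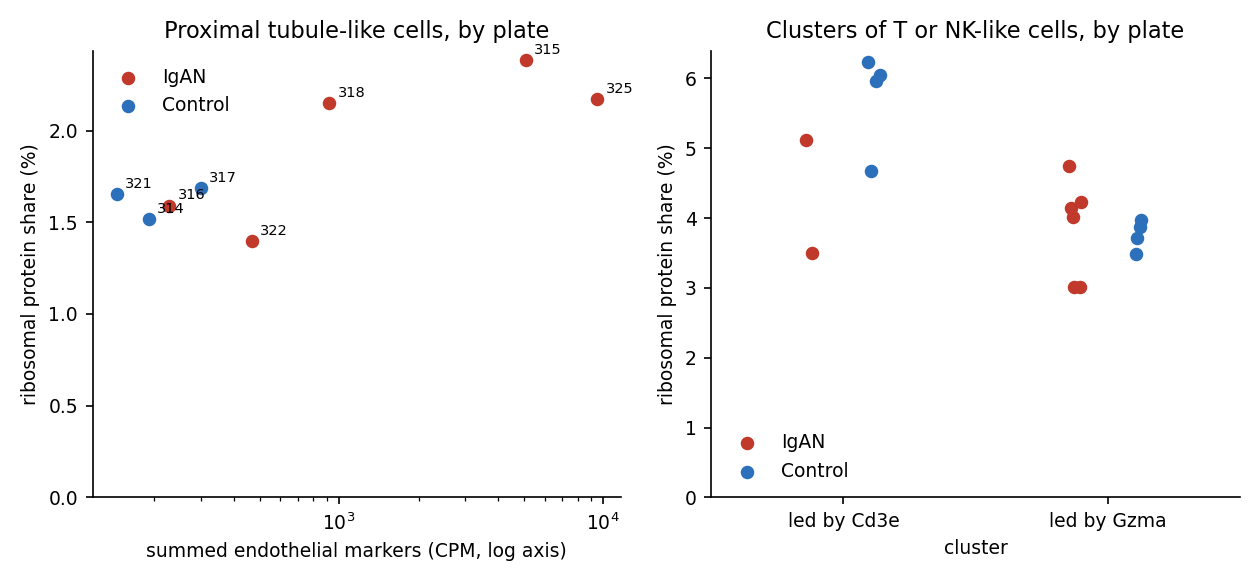
Left, ribosomal protein share of proximal tubule-like cells (y axis, percent) against their summed endothelial markers (x axis, CPM, log axis) for each plate with at least 5 cells: plates 315 and 325 have most endothelial marker reads and shares of 2.39% and 2.17%. Plate 318, with fewer such reads, has a share of 2.15%. Right, the share in the Cd3e-led and the Gzma-led cluster of T or NK-like cells, 1 point per plate with at least 5 cells, where the Cd3e-led cluster has 2 IgAN points only.

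In endothelial-like cells the members lay on both sides of 0: 43 of 78 were higher and 35 lower, with a median log2 of 0.01, the same as for all 9732 genes. Shares were 2.13%, 2.65%, 1.72%, 2.34%, 1.86% and 2.68% in the IgAN plates and 2.03%, 2.07%, 2.17% and 2.26% in the Control plates, so the IgAN plates lay on both sides. None was called higher (1.54% of all genes) and 1 lower (2.37%), and none met the size rule (0.812% higher, 0.73% lower). The one called was Rps4l, with 28.7, 26.9, 13.6, 32.1, 21.9 and 35.0 CPM in the IgAN plates and 52.9, 43.5, 35.8 and 47.6 CPM in the Control plates (25.3 against 46.4 CPM, log2 -0.85). It was found in 17.6% of IgAN and 25.4% of Control cells. The highest IgAN plate and the lowest Control plate were 35.0 and 35.8 CPM, a small gap. The level of Tmtc1 did not go the same way, with 25.5 CPM in IgAN and 20.2 CPM in Control. Its finding did, in 20.5% of IgAN and 27.1% of Control cells. Different clusters held most of the class: the Fgf1-led cluster gave 316 Control and 51 IgAN cells, and the Ppbp-led, Hspg2-led and Apold1-led clusters 26, 56 and 36 Control and 282, 236 and 188 IgAN cells. Rps4l had 43.9 CPM in the Fgf1-led cluster and 27.6, 36.8 and 22.5 CPM in these others. The part of this mix of clusters in the difference of Rps4l was not tested.

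In macrophage or dendritic-like cells 40 of 78 members were higher and 38 lower (median log2 0.02, all genes 0.06). None was called higher (0.953% of all genes) and 2 lower (0.871%), and none met the size rule (0.789% higher, 0.471% lower). Rpl13a had 704, 729, 636, 713, 539 and 743 CPM in the IgAN plates and 801, 849, 761 and 919 CPM in the Control plates (log2 -0.30), and its plates stood apart as in T or NK-like cells. Rpl3, a large subunit protein near the peptidyl transferase centre, had 404, 366, 307, 392, 332 and 366 CPM against 427, 433, 416 and 437 CPM (-0.24). The Control plates of Rpl3 lay close together and above all the IgAN plates. Of the clusters, the Treml4-led gave 124 IgAN and 48 Control cells and the C1qc-led 53 and 51. Endothelial markers summed to 1562 CPM in IgAN (316 to 2989 CPM over plates) and 491 CPM in Control (430 to 528 CPM), all 10 with reads, and their part in these differences was not tested.

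In mesangial-like cells, the cells in which IgA collects in the human disease, 34 of 77 members were higher and 43 lower (median log2 -0.04, all genes 0.00). None was called higher (3.24% of all genes) and 2 lower (4.19%), and none met the size rule (2.42% higher, 2.21% lower). Rps2, a small subunit protein at the mRNA entry site, had 101, 132, 119 and 112 CPM in IgAN plates 313, 316, 318 and 325 and 153, 194 and 144 CPM in Control plates 314, 317 and 326 (log2 -0.43). The nearest plates of the groups for Rps2 were 132 and 144 CPM. The summed endothelial markers were 5212 CPM in IgAN and 4926 CPM in Control, and a second class's markers were carried by 83.5% and 87.0% of the cells.

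Rps27l was higher in IgAN in 4 of the 5 classes, with log2 0.74 in T or NK-like, 0.45 in endothelial-like, 0.33 in macrophage or dendritic-like and 0.34 in proximal tubule-like cells, and lower in mesangial-like cells (-0.57). Plates of the groups overlapped each time. In T or NK-like cells the IgAN plates ran from 87.9 to 218 CPM and the Control plates from 63.0 to 136 CPM. In endothelial-like cells plate 322 was the highest at 227 CPM, and plate 316 the lowest at 78.0 CPM.

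Of the translation lists, the elongation and release genes had a median log2 of -0.21 in T or NK-like cells, where 1 of 10 measured genes had plates apart, Eef2, lower in IgAN (1331 against 2429 CPM), where 1.53% of all genes stood apart lower. In mesangial-like cells their median was -0.32, with 3 of 11 lower and apart, where 4.19% of all genes stood apart lower. Among the 3 were Eef1e1 (20.1 against 64.0 CPM) and Eif5a2, which was near the floor (1.77 against 10.3 CPM). The mitochondrial ribosomal proteins had medians of 0.28 in T or NK-like, 0.20 in endothelial-like and 0.39 in macrophage or dendritic-like cells, and of -0.10 in proximal tubule-like cells, where the cytosolic members had -0.29, 0.01, 0.02 and 0.43. In proximal tubule-like cells plates of 4 of these 77 genes stood apart lower (3.68% of all genes) and of 1 higher (7.83%). In T or NK-like cells 1 stood apart lower (1.53% of all genes) and 0 higher (0.572%). In endothelial-like and macrophage or dendritic-like cells none did, where 0.871% to 2.37% of all genes stood apart in either direction. In mesangial-like cells 8 stood apart lower and 2 higher, where 4.19% and 3.24% of all genes did. The cytosolic ribosomal proteins outside the naming rule had medians of -0.17 in T or NK-like and 0.33 in proximal tubule-like cells, where 7 of 7 measured genes were higher and 1 had plates apart (7.83% of all genes higher, 3.68% lower).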

How the data were processed

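The authors deposited raw read counts of 3143 cells over 46517 gene names, unnormalized, and each cell is a sample of its own in the labels. TopHat2 2.1.1, SAMtools 0.1.18, Subread 1.4.6-p5, featureCounts and the build GRCm38 (mm10) appear in the submitters' processing notes. The sources used here do not give the annotation, the strand setting or the treatment of duplicate and multiply mapped reads.

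Every cell passed 10000 reads and 500 genes, and none was left out. Doublets were not called, and cells that carried markers of 2 classes were left out as an alternative. Clusters (Leiden, resolution 1, 15 neighbours, 30 components, 2000 variable genes, reads scaled to 100000 per cell) were made without any symbol starting Rpl or Rps. Each cluster was named for the class whose markers had the largest mean log2 fold (10 CPM added), if 3 or more of them were found in 25% of its cells. Reads were summed over a class and scaled to CPM, and levels of classes are means over plates with at least 5 cells. A gene was measured at 10 CPM and in 10% of cells in 1 group. Shares of cells have exact binomial intervals at 95%. The comparison was checked on simulated data. Genes named were the most and least abundant, those with plates apart or meeting the size rule, those with the widest range between classes, and paralogs and members with known further roles. A few named for context (Rps15a, Rps20, Rpl10, Rps2 and Rps9 in neutrophil-like cells, genes of lists other than those) were chosen after their values were seen. Some members that this rule names are not reported here. The members and lists were chosen with earlier results of these data known. Positions are from GENCODE vM21 on GRCm38. Python 3.11.15 was used with numpy 2.4.6, scipy 1.17.1, pandas 2.3.3, scanpy 1.11.5, leidenalg 0.10.2 and matplotlib 3.10.9.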

Additional observations from a re-analysis of the deposited data

Results flagged for a closer look

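In all, 5 sets of plates of a class and group, of 54 tested, held a plate far from the others by the gap between it and its neighbour (Dixon's 95% limit), and chance gives about 1 in 20. Of these, 3 were of Rps4l. In T or NK-like cells IgAN plate 313 had 71.2 CPM of Rps4l and the other plates 0.510 to 10.2 CPM, and without plate 313 the log2 difference between groups was -0.88 in place of 1.62. In macrophage or dendritic-like cells IgAN plate 325 had 53.0 CPM, the others 0.140 to 13.2 CPM, and Control plate 321 had 4.34 CPM, the others 0.762 to 1.05 CPM. In mesangial-like cells IgAN plate 316 had 129 CPM of Rpsa and the others 222 to 238 CPM. In proximal tubule-like cells IgAN plate 315 had 292 CPM of Rpl24 and the others 187 to 201 CPM, and without it the log2 difference was 0.14 in place of 0.40.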

How the results depend on the processing

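No paired analysis was possible because the labels give the groups no shared replicate numbers and each plate holds 1 group. The order of classes was the same under 11 of the 16 alternatives run, apart from podocyte-like and mesangial-like cells changing places at resolution 0.5 and without plate 318, 322 or 326, and from the setting without cells that carried 2 classes' markers. There parietal epithelial-like cells fell just below endothelial-like cells (log2 -0.061, 2 plates). The share between groups moved by less than 1 SD between plates in 109 of 111 values, but its sign changed in 13, of which 8 were in endothelial-like cells, whose difference is near 0, 3 in macrophage or dendritic-like cells and 1 each in mesangial-like and T or NK-like cells. Without plates 316 and 322 it was 0.08 in macrophage or dendritic-like and 0.03 in mesangial-like cells. Under a median of ratios scaling it was 0.10 in proximal tubule-like cells, and in the Gzma-led cluster alone 0.020. Leaving out 1 plate gave -0.38 to -0.17 in T or NK-like, -0.05 to 0.08 in endothelial-like, -0.12 to 0.03 in macrophage or dendritic-like, -0.13 to -0.02 in mesangial-like and 0.25 to 0.43 in proximal tubule-like cells.

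Counts of members with plates apart were less steady, since they rest on single plates, and fewer plates are apart more easily. The share of all genes with plates apart, or meeting the size rule, was not counted under these settings. The counts below are therefore not a result about the members. In T or NK-like cells (1 member) they were 4 with a median of ratios, 5 with the mean of the cells' CPM, 56 without 2-class cells (2 plates of each group), 4 in cells with 100000 reads, 0 at resolution 0.5 or 2 and with ribosomal genes allowed among the variable genes, 13 in the Cd3e-led cluster alone (2 IgAN plates), 0 in the Gzma-led cluster alone, and 1 to 8 with 1 plate left out (8 without 317). In endothelial-like cells (1) they were 0 with the mean of the cells' CPM, in cells with 100000 reads, with ribosomal genes allowed or with a filter of 50 CPM, 9 without plates 316 and 322 (8 higher), and 1 to 2 with 1 plate left out. In macrophage or dendritic-like cells (2) they were 6 without 2-class cells, 6 without plates 316 and 322, and 2 to 3. In mesangial-like cells (2) they were 1 at resolution 0.5, 4 without plates 316 and 322, and 2 to 14 (14 without 325). In proximal tubule-like cells (9) they were 2 with a median of ratios, 41 without plates 316 and 322, 20 with endothelial-marked cells left out, and 9 to 41 (41 without 316). The size rule gave 0 there with a median of ratios or the mean of the cells' CPM, 3 at resolution 0.5, 5 at a log2 limit of 0.5, 4 without plates 316 and 322 and 0 to 4 with 1 plate left out, where the count was 1, and a limit of 0.5 gave 1 in T or NK-like and 1 in endothelial-like cells. Elsewhere it gave 0 with each plate left out.

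Of single members, 586 of 596 values moved by less than 1 SD between plates, and 14 changed sign. Those were 6 of Rps4l, among them -1.07 in macrophage or dendritic-like cells without 2-class cells and -0.88 in T or NK-like cells without plate 313, 5 of Rpsa (-0.17 in proximal tubule-like cells with a median of ratios, 0.07 in endothelial-like cells without plate 322) and 3 of Rpl3 (0.02 in the latter, -0.10 in proximal tubule-like cells with endothelial-marked cells left out). Not run, for want of plates, were mesangial-like and proximal tubule-like cells without 2-class cells, and the place in the order of loop of Henle-like and smooth muscle or renin-like cells without them and of the latter at resolution 0.5. Leaving out plates 316 and 322, single clusters of T or NK-like cells, endothelial-marked cells, and 2-class cells or 1 plate for the order were chosen after seeing the data.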
